A study of Homo sapiens with 8 samples.

Results

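MOLM-13 cells given a Menin inhibitor and a KAT6A inhibitor together were compared with the sum of what each inhibitor did alone. For every gene the log2 interaction was taken, which is the combination minus VTP50469 minus WM1119 plus DMSO. A value of 0 means that the log2 change of the combination equals the sum of both single changes, a positive value lies above that sum and a negative value below it. All 8 libraries of the count table enter the contrast, and 12401 of the 26475 genes in the table had enough counts to be tested.

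MOLM-13, a cell line established from an acute myeloid leukemia, carries a KMT2A-AF9 fusion and is labelled wild type in all libraries. The 4 groups are DMSO, the vehicle, VTP50469, which blocks the binding of Menin to KMT2A, WM1119, which inhibits the acetyltransferase KAT6A and is spelled WM119 in the labels, and both inhibitors together, with 2 libraries each. The sources used here give neither dose nor duration, nor whether a group's 2 libraries are separate cultures, so p-values measure only the spread between these libraries, which may be technical. The line is a single leukemia, and in bulk RNA fewer cells of a type and less RNA per cell cannot be told apart. The myeloid genes CD33 (51.8 to 101 CPM, counts scaled to a common library size), SPI1 (140.1 to 417 CPM) and LYZ (541 to 8431 CPM) were present in all 8 libraries, and HBB of red cells, CD3E of T cells and EPCAM of epithelium were at 0 in all of them.

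Menin holds KMT2A fusion proteins at their target genes, among them the HOXA cluster, MEIS1 and PBX3, which keep leukemic cells in an immature state. KAT6A acetylates histone H3 at active genes and is needed for HOX gene expression in blood stem cells. Loss of Menin binding is known to release myeloid differentiation in such leukemias, with complement receptors, oxidase subunits, Fc receptors and granule proteins among the genes of mature monocytes and neutrophils.

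The 2 libraries of the combination differed from each other more than those of any other group. Combination replicate 2 had 12972 genes with counts, against 14142 to 14544 in the other 7 libraries, and a TMM scaling factor of 0.872, against 0.994 to 1.04. Between the 2 libraries of a group, 81 of the 12401 genes lay over 2-fold apart in DMSO, 79 with VTP50469, 148 with WM1119 and 2296 in the combination. The difference of replicate 1 from replicate 2 went with transcript length at a Spearman correlation across genes of 0.606 in the combination, -0.613 with WM1119, 0.405 with VTP50469 and 0.206 in DMSO, where the genes of 1 library are not independent points. Library totals ran from 18092906 to 23634468 counts. Each combination library is therefore given on its own below, as its departure: log2(CPM + 0.5) minus the value expected from the means of the other 3 groups.

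By the quasi-likelihood test of edgeR, 0 of 12401 genes were called above the sum and 0 below it at an adjusted p under 0.05. At an unadjusted p under 0.05, 159 genes lay above the sum (1.28%) and 114 below it (0.919%), together 2.2% of the genes tested, where such a threshold admits 5% if no gene departs. DESeq2 called 3 genes above the sum, C3, PECAM1 and SEMA6B (0.0183% of 16403), and 2 below it (0.0122%), the read-through names CHURC1-FNTB and ISY1-RAB43. The departures of combination replicate 1 had an interquartile range of 0.312 and those of replicate 2 of 0.993. More than 2-fold above the expected level lay 160 genes in replicate 1 (1.29%) and 777 in replicate 2 (6.27%), with 81 in both (0.653%), which is 50.6% of the first list and 10.4% of the second. More than 2-fold below it lay 101 genes in replicate 1 (0.814%) and 1148 in replicate 2 (9.26%), with 44 in both (0.355%), which is 43.6% and 3.83%. The genes described first are therefore the 12 on each side with the lowest unadjusted interaction p among those at 5 CPM or more in at least 1 group whose 2 combination libraries lay on the same side of the sum, so their departures are a description of that choice. The rule largely fixes direction in advance, and each of the 24 kept it in all 8 fits that left out 1 library. None was called by edgeR except in the fit without combination replicate 1, where all 3 other groups set the spread and 12.4% and 18.4% of all genes were called above and below the sum.

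**Figure D1:**
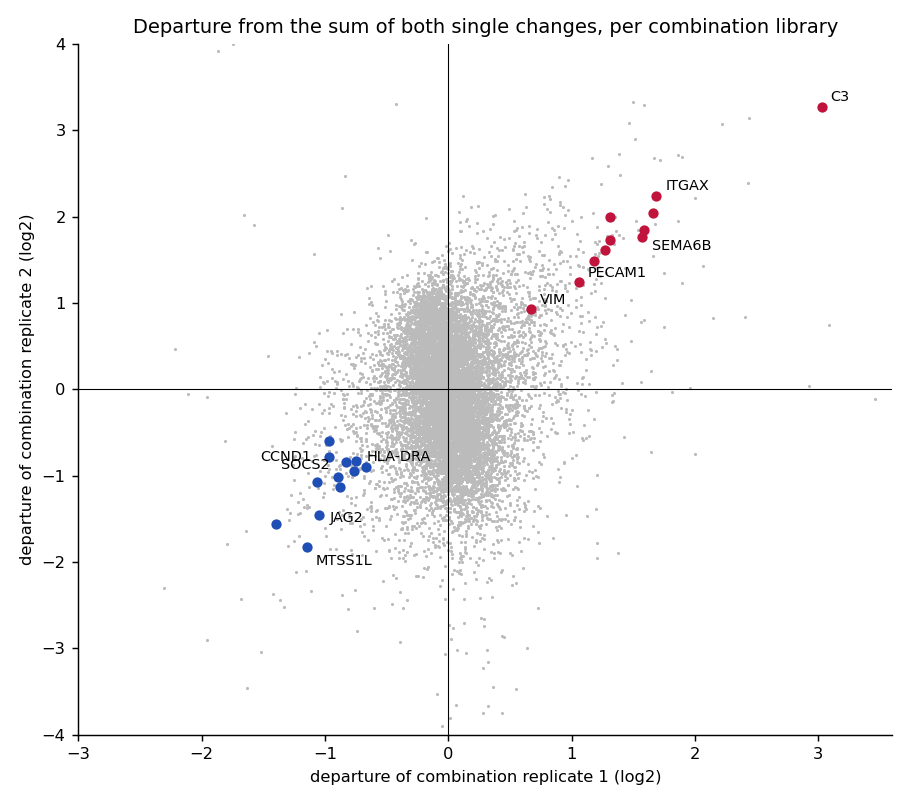
Departure of every tested gene from the sum of both single changes (log2), combination replicate 1 on the horizontal axis and replicate 2 on the vertical axis. Grey points are genes (12388 drawn, 13 outside the axes), red points 11 of the 12 leading genes above the sum and blue points the 12 below it, and the grey cloud is wider along replicate 2 (interquartile range 0.993) than along replicate 1 (0.312).

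Above the sum, complement component C3, the central protein of the complement cascade that mature phagocytes secrete, had the lowest p of all genes. C3 stood at 0.920 and 0.806 CPM in DMSO, 3.33 and 3.87 CPM with VTP50469, 1.15 and 1.31 CPM with WM1119 and 41.8 and 49.7 CPM with both inhibitors. Both combination libraries lay far above the other 6, which reached 3.87 CPM. The sum of the single log2 changes gives 4.70 CPM, so the combination libraries were 8.14 and 9.66 times that level (interaction 3.15, SE 0.30, edgeR adjusted p 0.231, DESeq2 adjusted p 5.07e-07). C3 lies on chromosome 19 at 6677704-6720650 of GRCh38, on the minus strand.

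PECAM1, the adhesion receptor CD31 of monocytes, platelets and endothelium, came after C3 and SEMA6B by p and stood at a higher level. It had 32.5 and 29.5 CPM in DMSO, 44.7 and 48.7 CPM with VTP50469, 65.9 and 66.9 CPM with WM1119 and 208 and 236 CPM with both. Each inhibitor alone was above DMSO in both libraries, and the combination was above all of them by a margin wider than the spread within any group. The expected level was 99.7 CPM (interaction 1.15, SE 0.19, edgeR adjusted p 0.938, DESeq2 adjusted p 0.00179). Set directly against a single inhibitor, the combination was higher than VTP50469 (edgeR adjusted p 0.00583, a comparison in which 0.234% of all genes were called higher) and higher than WM1119 (edgeR adjusted p 0.00748, with 1.02% of all genes called higher).

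SEMA6B, a transmembrane semaphorin, did not lie above DMSO with either inhibitor alone. Its values were 5.41 and 5.07 CPM in DMSO, 4.66 and 5.05 CPM with VTP50469, 4.22 and 4.36 CPM with WM1119 and 12.7 and 14.6 CPM with both. The 6 other libraries lay within 4.22 to 5.41 CPM, and both combination libraries lay above that range (interaction 1.78, SE 0.26, edgeR adjusted p 0.938, DESeq2 adjusted p 0.00429).

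Receptor and signaling genes of phagocytes were also among them. ITGAX, the CD11c integrin chain of complement receptor 4, stood at 1.24 and 1.09 CPM in DMSO, 1.18 and 1.01 CPM with VTP50469, 2.17 and 2.02 CPM with WM1119 and 7.46 and 11.2 CPM with both (interaction 2.24, SE 0.43). Neither of its combination libraries overlapped any other library. CLEC5A, a C-type lectin that signals through DAP12 in myeloid cells, had 1.08 and 1.04 CPM in DMSO, 2.35 and 3.25 CPM with VTP50469, 0.724 and 1.08 CPM with WM1119 and 8.69 and 11.5 CPM with both (interaction 2.08, SE 0.46). FGR, a SRC family kinase of myeloid cells, had 1.46 and 1.42 CPM in DMSO, 5.79 and 7.55 CPM with VTP50469, 2.09 and 1.92 CPM with WM1119 and 22.3 and 36.1 CPM with both (interaction 1.65, SE 0.42). In CLEC5A and FGR the VTP50469 libraries were above those of DMSO and WM1119, and the combination libraries were above these again. The edgeR adjusted p of all 3 genes was 0.938.

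An enzyme of granules and one of lysosomes followed. QPCT, the glutaminyl cyclase of secretory granules, stood at 1.08 and 0.949 CPM in DMSO, 2.65 and 2.94 CPM with VTP50469, 1.41 and 1.27 CPM with WM1119 and 9.37 and 12.8 CPM with both (interaction 1.58, SE 0.38). DNASE2, the acid nuclease of lysosomes, stood at 6.01 and 6.31 CPM in DMSO, 5.35 and 6.32 CPM with VTP50469, 10.7 and 7.27 CPM with WM1119 and 19.6 and 24.2 CPM with both (interaction 1.36, SE 0.34). The VTP50469 libraries of QPCT were above DMSO and those of DNASE2 overlapped it, and for both genes the 2 combination libraries were above every other library (edgeR adjusted p 0.938 for each).

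SRC, PFKFB4 and VIM reached the upper side in another way, since VTP50469 alone lay below DMSO. SRC, the founding member of its kinase family, stood at 5.57 and 4.22 CPM in DMSO, 2.31 and 1.76 CPM with VTP50469, 3.66 and 3.61 CPM with WM1119 and 5.34 and 6.51 CPM with both. Its combination libraries overlapped DMSO, so the interaction of 1.97 (SE 0.38) describes a level near the vehicle where the single changes add up to 1.44 CPM. PFKFB4, a regulator of glycolysis, stood at 5.09 and 4.13 CPM in DMSO, 2.11 and 2.90 CPM with VTP50469, 4.56 and 3.99 CPM with WM1119 and 6.23 and 8.06 CPM with both (interaction 1.61, SE 0.38). VIM, the intermediate filament vimentin, stood at 776 and 709 CPM in DMSO, 504 and 482 CPM with VTP50469, 1090.3 and 1023 CPM with WM1119 and 1116 and 1337 CPM with both (interaction 0.81, SE 0.20). Combination replicate 1 of VIM was close to WM1119 replicate 1, and replicate 2 was above both (edgeR adjusted p 0.938 for the 3 genes).

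**Figure D2:**
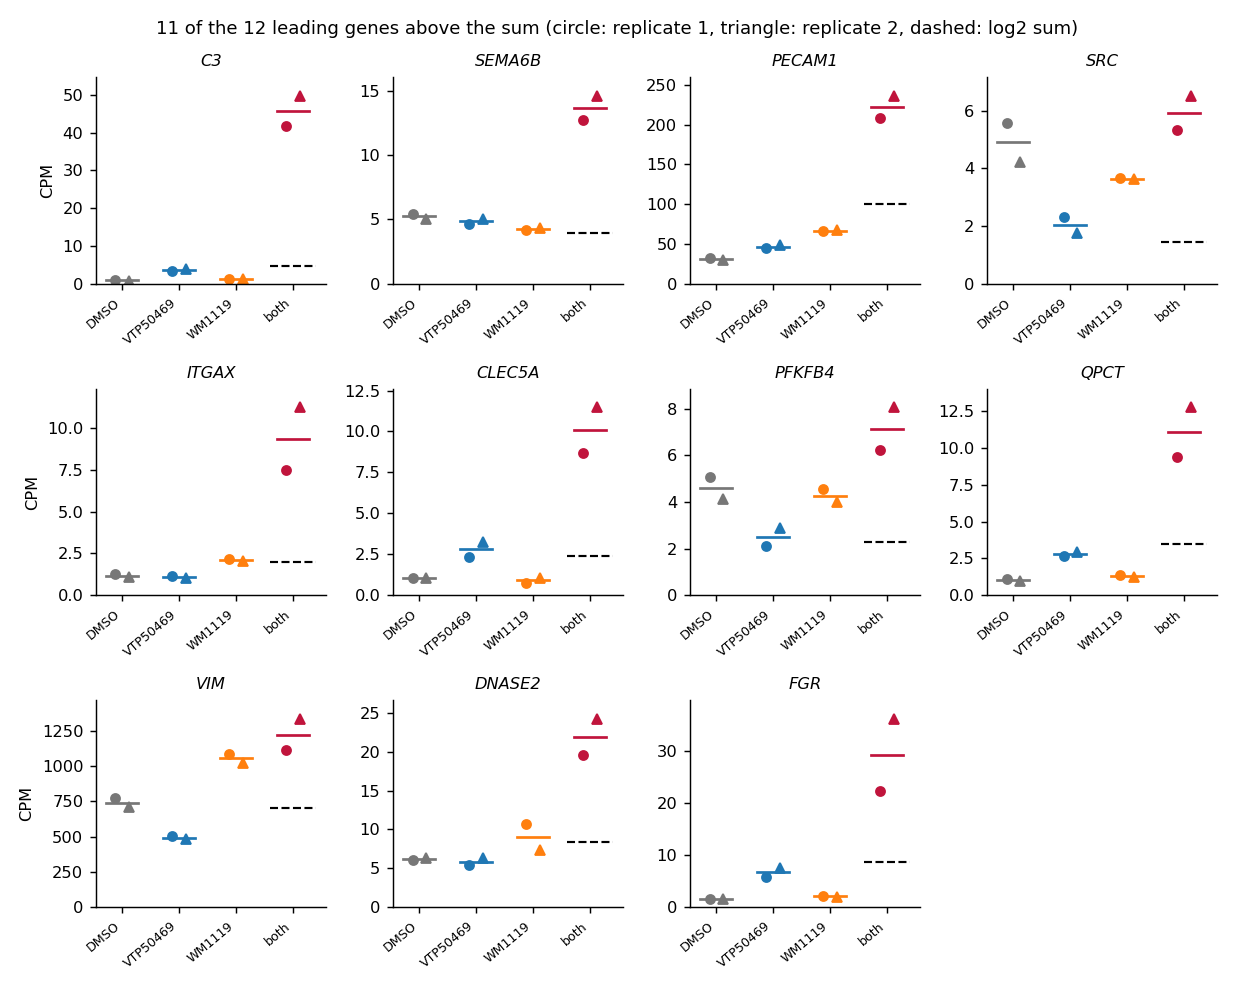
CPM (linear axis from 0) of 11 of the 12 leading genes above the sum in DMSO, VTP50469, WM1119 and both inhibitors. Circles are replicate 1, triangles replicate 2, coloured lines the mean of 2 libraries and dashed lines the level expected from the sum of the single log2 changes. All combination points lie above the dashed line, and for SRC they lie at the level of DMSO.

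The promoters of the leading genes were searched for those with an entry in the RefSeq promoter set used (GRCh38.p14), 6 of 12 on each side. The genes share a side through the rule that chose them, so nothing is read from a difference between the sides. In the 250 bases before the start, the core letters of the PU.1 motif, GAGGAA, on either strand, were in 4 of 6 leading genes above the sum with an entry and in 0 of 6 below it, against 23.4% of 27305 promoters. The C/EBP letters TTGCNNAA were in 0 and 0 (9.13% of all promoters), and the RUNX letters TGTGGT in 1 and 0 (10.9%). The 200 bases before the start of CLEC5A (chr7:141946975-141947174, minus strand), FGR (chr1:27635186-27635385, minus strand), VIM (chr10:17228041-17228240, plus strand) and JAG2 (chr14:105168777-105168976, minus strand) are printed 5′ to 3′ with the matches to these motifs in capitals.
CLEC5A: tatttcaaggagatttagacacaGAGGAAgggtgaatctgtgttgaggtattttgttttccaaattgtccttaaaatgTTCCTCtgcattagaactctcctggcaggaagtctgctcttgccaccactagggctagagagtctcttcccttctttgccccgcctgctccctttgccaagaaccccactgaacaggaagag
FGR: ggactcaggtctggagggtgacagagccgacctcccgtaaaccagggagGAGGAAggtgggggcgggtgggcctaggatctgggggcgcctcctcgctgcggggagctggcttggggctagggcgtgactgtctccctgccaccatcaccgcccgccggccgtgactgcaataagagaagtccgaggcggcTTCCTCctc
VIM: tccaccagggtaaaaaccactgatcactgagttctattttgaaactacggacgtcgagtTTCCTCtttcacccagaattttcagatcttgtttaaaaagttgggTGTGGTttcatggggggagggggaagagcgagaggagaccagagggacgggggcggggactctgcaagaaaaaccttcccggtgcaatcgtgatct
JAG2: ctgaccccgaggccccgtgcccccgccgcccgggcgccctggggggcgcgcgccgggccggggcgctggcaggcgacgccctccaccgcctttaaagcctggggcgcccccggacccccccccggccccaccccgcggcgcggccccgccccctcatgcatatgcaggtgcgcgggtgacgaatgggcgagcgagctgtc
CLEC5A and FGR hold 2 matches to the PU.1 letters each and VIM holds 1 beside a RUNX match, while JAG2, a gene below the sum, holds none. A match is a string of letters in this window and does not show binding.

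Below the sum, the Notch ligand JAG2 had the lowest p of the 12. JAG2 stood at 21.9 and 22.8 CPM in DMSO, 18.1 and 18.4 CPM with VTP50469, 20.3 and 19.6 CPM with WM1119 and 7.63 and 5.64 CPM with both. The single-inhibitor libraries lay between 18.1 and 20.3 CPM, below both DMSO libraries, and both combination libraries lay below those. The sum gives 16.3 CPM, so the combination libraries had 0.484 and 0.365 times that level (interaction -1.29, SE 0.25, edgeR adjusted p 0.938). JAG2 lies on chromosome 14 at 105140995-105168776 of GRCh38, on the minus strand.

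SOCS2 and CCND1 were below the sum although each inhibitor alone already stood below DMSO. The lists under which they were named differed, with the LSC17 stemness score leaning furthest below 0. For SOCS2, 8 of 15 STAT5 targets and cytokine feedback genes had an interaction above 0 (median 0.06), beside 48.1% of all genes. In the LSC17 stemness score, 7 of 9 were below 0 (median -0.42, departures -0.07 and -0.53), beside 51.9% of all genes. For CCND1, 12 of 20 cyclins, CDKs and CDK inhibitors (median -0.06) and 8 of 16 MAPK feedback genes (-0.0018) were below 0. SOCS2, the feedback inhibitor of cytokine receptors that STAT5 induces, stood at 47.6 and 48.6 CPM in DMSO, 27.2 and 23.4 CPM with VTP50469, 38.2 and 35.2 CPM with WM1119 and 10.6 and 10.5 CPM with both (interaction -0.87, SE 0.20). CCND1, the G1 cyclin D1, stood at 30.6 and 30.6 CPM in DMSO, 25.4 and 24.2 CPM with VTP50469, 16.1 and 13.9 CPM with WM1119 and 5.94 and 6.82 CPM with both (interaction -0.94, SE 0.22). In both genes the 4 groups were separated in every library, with the combination lowest, and the 2 combination libraries departed by like amounts (-0.83 and -0.84 for SOCS2, -0.97 and -0.78 for CCND1). The edgeR adjusted p was 0.938 for each, and DESeq2 called neither.

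MTSS1L (now MTSS2), an actin and membrane binding protein, stood at 39.0 and 35.6 CPM in DMSO, 31.4 and 28.8 CPM with VTP50469, 22.7 and 19.3 CPM with WM1119 and 7.34 and 4.40 CPM with both (interaction -1.52, SE 0.34). MPZL1, a receptor that binds the phosphatase SHP2, stood at 27.9 and 25.8 CPM in DMSO, 22.8 and 22.4 CPM with VTP50469, 21.8 and 19.3 CPM with WM1119 and 10.7 and 8.99 CPM with both (interaction -0.81, SE 0.22). CPNE7, a calcium-dependent phospholipid binding copine, stood at 11.4 and 11.95 CPM in DMSO, 8.73 and 9.05 CPM with VTP50469, 7.75 and 8.77 CPM with WM1119 and 3.14 and 2.85 CPM with both (interaction -1.07, SE 0.25). All 3 had their lowest values in the 2 combination libraries, without overlap (edgeR adjusted p 0.938 for each).

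GAL, the neuropeptide galanin, shows how the result depends on the scale of the sum. It stood at 62.8 and 64.8 CPM in DMSO, 41.8 and 41.1 CPM with VTP50469, 37.5 and 33.8 CPM with WM1119 and 11.53 and 14.999 CPM with both. On the log2 scale the sum gives 23.0 CPM and the combination lies below it (interaction -0.81, SE 0.23, edgeR adjusted p 0.938). When the single changes are added in CPM instead, the sum is 13.3 CPM, which is the mean of the 2 combination libraries.

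KIAA0226L, CCDC102A and METAP1D had both combination libraries below the other 6. KIAA0226L (now RUBCNL), a regulator of autophagosome maturation, stood at 146 and 161 CPM in DMSO, 161 and 146 CPM with VTP50469, 186 and 187 CPM with WM1119 and 109.6 and 96.1 CPM with both (interaction -0.86, SE 0.19). Its WM1119 libraries were above those of DMSO and VTP50469. CCDC102A stood at 8.82 and 8.68 CPM in DMSO, 8.29 and 7.77 CPM with VTP50469, 10.3 and 7.88 CPM with WM1119 and 3.69 and 3.66 CPM with both (interaction -1.18, SE 0.28). METAP1D, a mitochondrial methionine aminopeptidase, stood at 5.84 and 6.31 CPM in DMSO, 6.28 and 6.28 CPM with VTP50469, 7.03 and 6.003 CPM with WM1119 and 3.43 and 2.79 CPM with both (interaction -1.11, SE 0.30). The edgeR adjusted p was 0.938 for each of the 3. The locus LOC100133286, at 3.38 to 6.86 CPM outside the combination and 1.23 and 1.05 CPM in it (interaction -1.85, SE 0.40), has no transcript entry in the annotation used and is uncertain.

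HLA-DRA, the alpha chain of the class II molecule HLA-DR, was below the sum without being low. It stood at 6.55 and 6.26 CPM in DMSO, 11.8 and 10.8 CPM with VTP50469, 14.6 and 13.8 CPM with WM1119 and 14.4 and 13.6 CPM with both. The combination libraries overlapped those of WM1119 alone, against 24.5 CPM from the log2 sum and 19.1 CPM from the sum in CPM (interaction -0.84, SE 0.22, edgeR adjusted p 0.938). Of the 11 class II presentation genes tested, HLA-DRA was the 1 with an unadjusted p under 0.05, and the median interaction of the list was -0.0016.

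**Figure D3:**
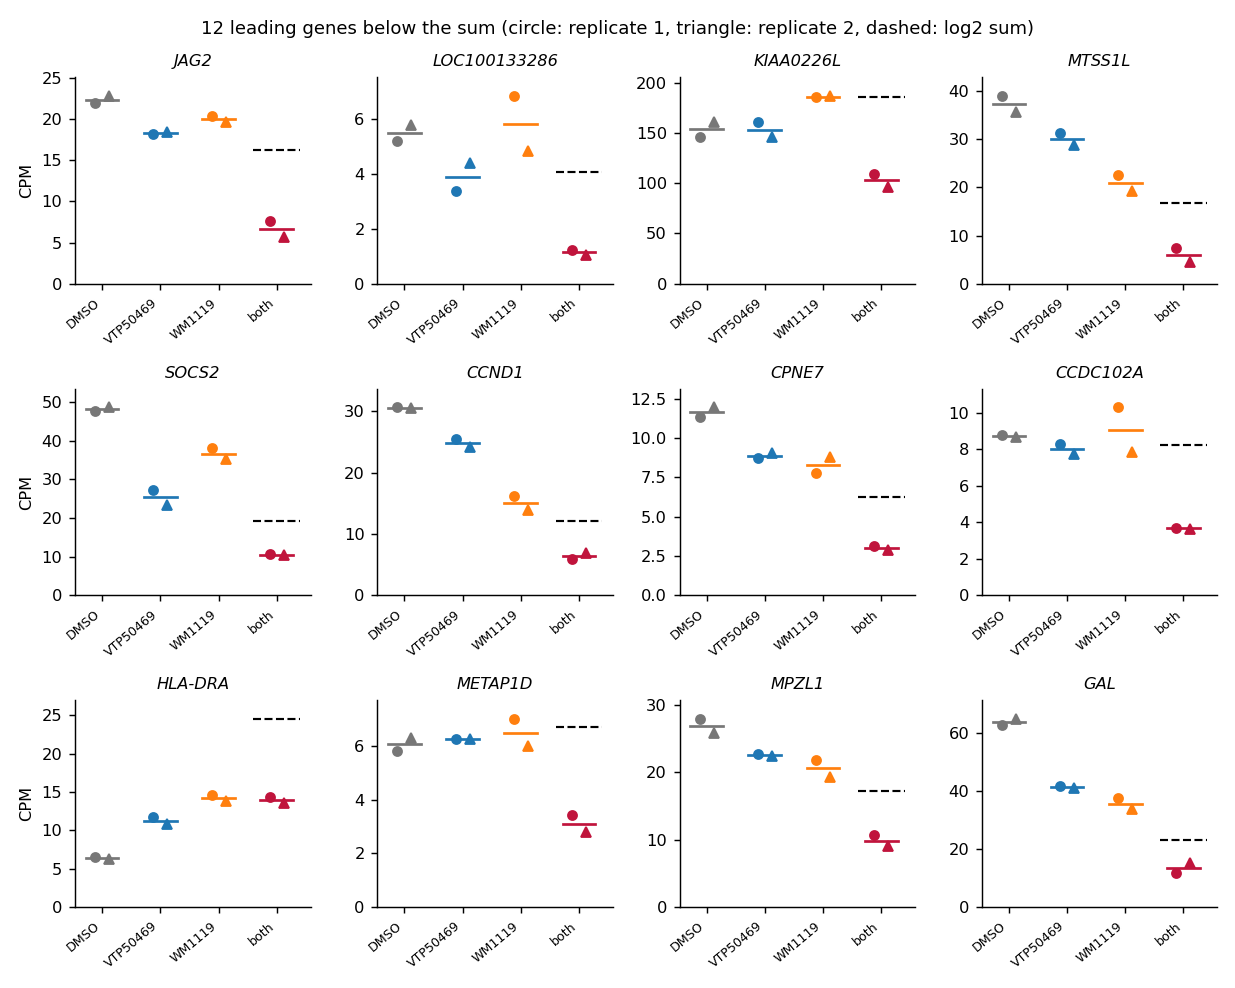
CPM (linear axis from 0) of the 12 leading genes below the sum, drawn with the same symbols as those above it. All combination points lie below the dashed line of the log2 sum, and HLA-DRA alone has combination points at the level of WM1119 and above DMSO.

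Most genes with an unadjusted p under 0.05 had both combination libraries outside the range of the others. Of the 159 above the sum, 116 had both combination libraries above all other 6 and 43 had at least 1 that was not. Of the 114 below the sum, 90 had both below all other 6, 2 had both above, and the remaining 22 had neither. Over all 12401 genes, 13.2% had both combination libraries above the other 6 and 13.2% had both below. Since 60 of the 159 and 47 of the 114 had under 5 CPM in every group, many of these rest on few counts.

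Other genes stood above DMSO with each inhibitor and below the log2 sum with both. The immediate early factor JUN had 5.74 and 4.03 CPM in DMSO, 9.32 and 8.96 CPM with VTP50469, 8.18 and 8.07 CPM with WM1119 and 9.03 and 7.75 CPM with both (interaction -0.86, SE 0.31). BZRAP1 (now TSPOAP1), a scaffold protein first found as a partner of the peripheral benzodiazepine receptor, had 65.5 and 68.3 CPM in DMSO, 267 and 296 CPM with VTP50469, 114 and 133 CPM with WM1119 and 351 and 294 CPM with both (interaction -0.69, SE 0.21). SERPINB2, the urokinase inhibitor PAI-2 of monocytes, had 0 and 0.0474 CPM in DMSO, 2.89 and 4.26 CPM with VTP50469, 0.128 and 0.188 CPM with WM1119 and 2.04 and 1.05 CPM with both. The combination libraries of SERPINB2 were below both VTP50469 libraries, those of JUN overlapped both single inhibitors, and those of BZRAP1 were above WM1119, with replicate 1 above both VTP50469 libraries and replicate 2 between them. The opposite case is DDIT4, the stress-induced inhibitor of mTORC1, which had 114 and 95.1 CPM in DMSO, 51.9 and 51.0 CPM with VTP50469, 58.3 and 49.2 CPM with WM1119 and 41.3 and 50.1 CPM with both (interaction 0.79, SE 0.24). Adding its single changes in CPM would leave 0.825 CPM, and the log2 sum leaves 26.4 CPM. The edgeR adjusted p of these 4 genes was 0.938.

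On the choice of scale, 11864 of 12401 genes lay on the same side of the log2 sum and of the sum in CPM. Another 462 were below the log2 sum and above the CPM sum, and 75 the reverse. Among the genes with an unadjusted p under 0.05, 5 of the 114 below the log2 sum were above the CPM sum, and 0 of the 159 above were below it.

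By function, several lists of phagocyte genes were among those with a median above 0. In the list of monocyte and macrophage maturation, 30 members were tested. Of these, 22 had both combination libraries above the other 6 (13.2% of all genes) and 0 had both below. A gene that follows the sum of both single rises can also lie there, so this position does not measure a departure. The list's median single changes were 1.11 with VTP50469 and 0.49 with WM1119. By departure, 21 of the 30 members lay above 0 in both combination libraries (21.6% of all genes) and 3 below (25%). Their median departure was 0.56 in combination replicate 1 and 0.59 in replicate 2, beside -0.01 and -0.04 over all genes, and the median interaction was 0.35 beside -0.02. At an unadjusted p under 0.05, 4 members lay above (ITGAX, ITGAM, S100A9 and CD86) and 0 below. ITGAM, the CD11b chain of complement receptor 3, had 1.68 and 1.57 CPM in DMSO, 3.83 and 2.81 CPM with VTP50469, 4.34 and 3.24 CPM with WM1119 and 17.4 and 17.4 CPM with both (interaction 1.17, SE 0.35, edgeR adjusted p 0.938). The level of LYZ, lysozyme, followed the sum more closely, with 541 and 598 CPM in DMSO, 1783 and 2226 CPM with VTP50469, 1559 and 1502 CPM with WM1119 and 6374 and 8431 CPM with both (interaction 0.46).

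All 11 tested Fc receptors and adaptors had an interaction above 0 (48.1% of all genes), with a median of 1.36. Their median departures were lower, 0.65 and 1.05 in the 2 combination libraries. The departure adds 0.5 to the CPM and can differ from the fitted interaction at low CPM. Of the 11, 3 had an unadjusted p under 0.05 (1.28% of all genes above), and 0 lay over 2-fold above the sum in both combination libraries. FCGRT, the neonatal Fc receptor that recycles IgG, had 22.7 and 22.01 CPM in DMSO, 26.7 and 35.1 CPM with VTP50469, 44.5 and 40.8 CPM with WM1119 and 101 and 203 CPM with both (interaction 1.36, SE 0.45). TYROBP, the adaptor DAP12, had 17.4 and 19.4 CPM in DMSO, 16.1 and 21.4 CPM with VTP50469, 35.9 and 29.6 CPM with WM1119 and 57.8 and 142.6 CPM with both (interaction 1.58, SE 0.56). Both combination libraries were highest for both genes, and replicate 2 was the higher of them by a wide margin (departures of 0.79 and 1.79 for FCGRT, 0.80 and 2.09 for TYROBP). In the NADPH oxidase list of 10 tested genes, 9 were above 0, and NCF1, the p47 subunit, whose near-identical pseudogene copies make its counts uncertain, had 55.5 to 76.99 CPM outside the combination and 118 and 290.5 CPM in it. Of 22 inhibitory receptors of the LILR and Siglec families, 16 were above 0 with a median of 0.15 and 3 had an unadjusted p under 0.05. SIGLEC7, a sialic acid receptor, had 0.834 to 3.15 CPM outside the combination and 5.09 and 7.25 CPM in it. Of 22 integrins and adhesion genes, 16 were above 0 with a median of 0.27, the 3 with an unadjusted p under 0.05 being PECAM1, ITGAX and ITGAM.

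Granule, lysosomal and S100 or annexin genes had higher list medians in replicate 2 than in replicate 1, and 12 of 16, 29 of 41 and 12 of 16 of them departed above 0 in both, beside 21.6% of all genes. Of 16 neutrophil granule proteins, 14 had both combination libraries above the other 6 (13.2% of all genes). The list's median single changes were 2.38 with VTP50469 and 0.78 with WM1119, so this position does not measure a departure. The median departure of these proteins was 0.28 in replicate 1 and 1.53 in replicate 2. MPO, the most abundant granule enzyme among them, stayed close to the sum, with 48.6 and 39.98 CPM in DMSO, 689 and 897 CPM with VTP50469, 99.7 and 106 CPM with WM1119 and 1421 and 2214 CPM with both (departures of -0.35 and 0.28). Lysosomal enzymes and membrane proteins numbered 41, of which 38 had an interaction above 0 (48.1% of all genes). Both combination libraries lay above the other 6 for 29 of the 41 (13.2% of all genes). The list's median single changes were 0.29 with VTP50469 and 0.23 with WM1119, and its median departures 0.19 and 0.41. PSAP, the precursor of the saposins that activate sphingolipid breakdown, had 189 and 189.8 CPM in DMSO, 235 and 260.1 CPM with VTP50469, 248 and 227 CPM with WM1119 and 419.8 and 505 CPM with both (interaction 0.58, SE 0.20). The protease cathepsin B, CTSB (interaction 0.60), had the same form, with both combination libraries highest. The S100 and annexin families had 15 of 16 above 0 and medians of 0.21 and 1.06. ANXA1, an annexin of granulocytes and monocytes, had 22.3 and 18.5 CPM in DMSO, 60.0 and 68.5 CPM with VTP50469, 28.6 and 25.6 CPM with WM1119 and 133 and 193 CPM with both (interaction 0.93, SE 0.30). None of the genes named for these lists passed edgeR (adjusted p 0.938 for those named with an SE).

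The type I interferon list had like medians in both combination libraries, 0.36 and 0.46, and 24 of its 33 tested genes had an interaction above 0. DDX58, the RNA sensor RIG-I, had 2.00 to 3.78 CPM outside the combination and 5.64 and 4.77 CPM in it (interaction 1.07, SE 0.39). IFI35, an interferon-induced leucine zipper protein, had 6.52 to 10.6 CPM outside it and 12.3 and 23.4 CPM in it (interaction 1.17, SE 0.48). Both had an unadjusted p under 0.05 and an edgeR adjusted p of 0.938, and their 2 combination libraries lay above the other 6.

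Below the sum, the targets of Menin and KMT2A fusions leaned to 1 side. Of 27 tested, 26 had an interaction below 0 (51.9% of all genes) and 19 had both combination libraries below the other 6 (13.2% of all genes). In both combination libraries 18 departed below 0 (25% of all genes) and 1 above (21.6%). The list medians were -0.20 in combination replicate 1, -0.77 in replicate 2 and -0.44 in the fit of all libraries. HOXA3 was the 1 member with an unadjusted p under 0.05: this homeobox gene had 3.73 and 4.22 CPM in DMSO, 3.24 and 3.73 CPM with VTP50469, 4.09 and 4.36 CPM with WM1119 and 1.23 and 1.05 CPM with both (interaction -1.68, SE 0.35, edgeR adjusted p 0.938). HOXA9, the homeobox gene most tied to these leukemias, had 66.2 and 66.3 CPM in DMSO, 55.6 and 57.6 CPM with VTP50469, 76.0 and 64.8 CPM with WM1119 and 48.6 and 45.8 CPM with both (interaction -0.35, SE 0.19). MEIS1, its DNA-binding partner, had 32.8 and 28.9 CPM in DMSO, 14.1 and 14.9 CPM with VTP50469, 32.0 and 30.3 CPM with WM1119 and 10.8 and 2.85 CPM with both (interaction -1.08, SE 0.69). PBX3, a further partner, had 94.3 and 86.5 CPM in DMSO, 60.0 and 59.4 CPM with VTP50469, 88.2 and 89.7 CPM with WM1119 and 48.5 and 30.7 CPM with both (interaction -0.57, SE 0.30). For these 3 genes both combination libraries were below the other 6, and the departures of replicate 1 (-0.30, -0.42 and -0.28) were smaller in size than those of replicate 2 (-0.38, -2.18 and -0.92). SHOX2, another homeobox gene, outside this list, had 363 and 339.9 CPM in DMSO, 170.2 and 151 CPM with VTP50469, 239.7 and 244 CPM with WM1119 and 63.4 and 37.5 CPM with both (interaction -1.13, SE 0.33). When its single changes are added in CPM, the sum is 51.2 CPM, close to the combination mean of 50.4 CPM. The edgeR adjusted p of these 4 genes was 0.938.

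Nucleolar ribosome biogenesis genes had medians below 0 in both combination libraries, -0.17 and -0.11, with 26 of 39 genes at an interaction below 0, 20 of 39 below 0 in both libraries (25% of all genes) and 0 at an unadjusted p under 0.05. Of the cyclins, CDKs and CDK inhibitors, 2 of 20 had an unadjusted p under 0.05, CCND1 and E2F5, both below (0.919% of all genes; list medians -0.04 and -0.17). The cell cycle lists of S phase (medians -0.06 and -0.13) and of G2 and M phase (0.03 and -0.29), the p53 targets (0.04 and -0.03) and the BCL2 family (-0.08 and 0.10) had 0 genes at an unadjusted p under 0.05. ATF4 and integrated stress response genes had 2 of 33 above and medians of -0.056 and -0.004, and cholesterol synthesis had 0 of 24 and medians of 0.02 and 0.14.

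**Figure D4:**
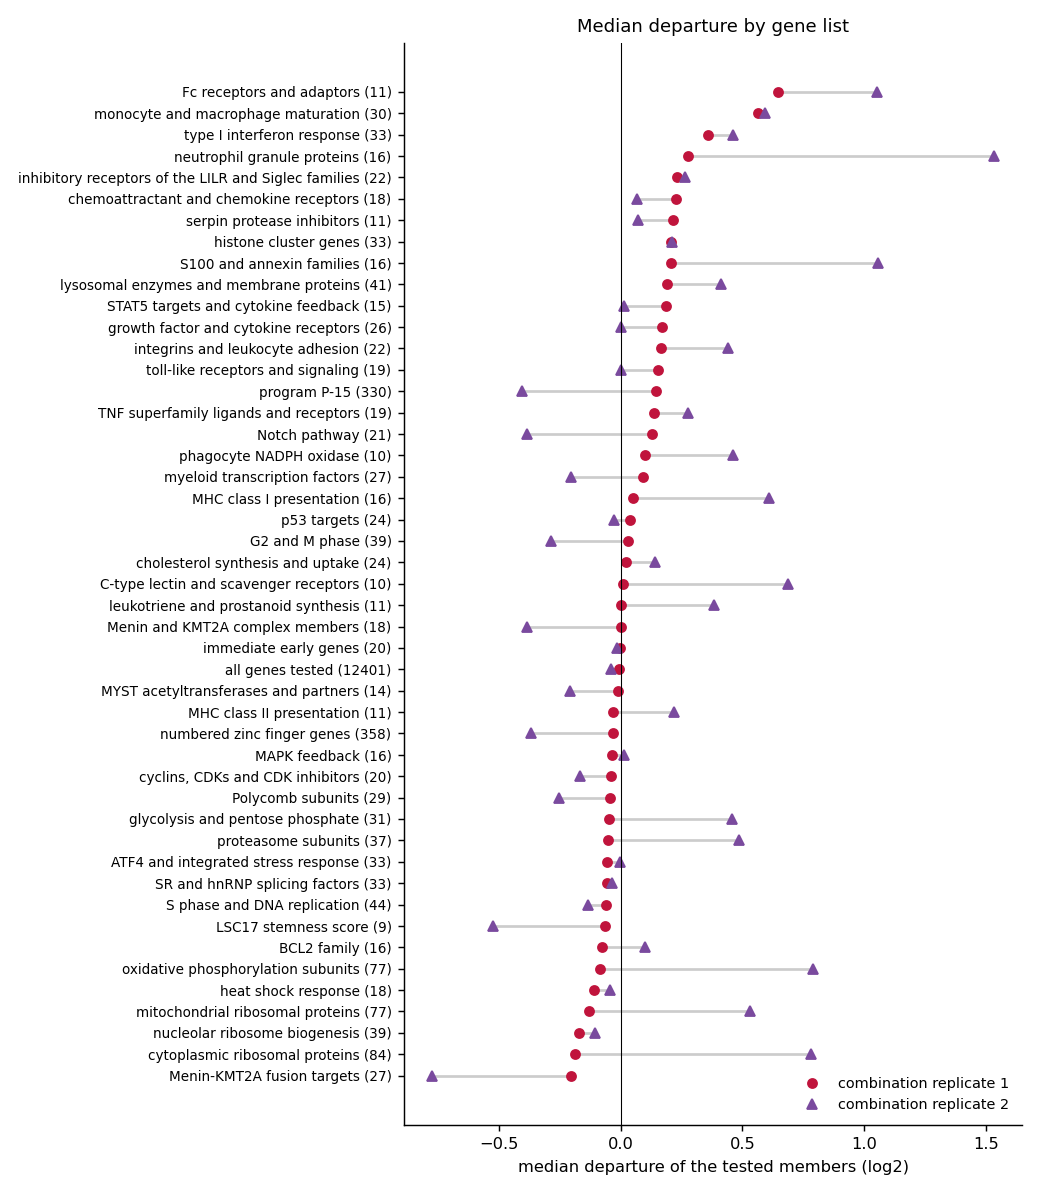
Median departure (log2, horizontal axis) of the tested members of each gene list with 8 or more of them, of program P-15 and of all tested genes, with the number tested in parentheses. Circles are combination replicate 1 and triangles replicate 2. Fc receptors and monocyte maturation genes lie to the right in both libraries, Menin-KMT2A fusion targets to the left in both, and ribosomal proteins on opposite sides (-0.19 and 0.78).

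Short and long transcripts separated the 2 combination libraries. In 5 bins of transcript length with 2419 genes each, the median departure went from -0.08 in the shortest to 0.08 in the longest for replicate 1 and from 0.61 to -0.61 for replicate 2, and across GC content from 0.08 to -0.10 and from -0.38 to 0.38. Spearman correlations across 12095 genes were 0.226 and -0.566 for length and -0.261 and 0.375 for GC content, with genes of 1 library sharing depth and base composition. Of 70 lists, 30 had medians of opposite sign in the 2 libraries. The 84 cytoplasmic ribosomal proteins, with a median transcript length of 827 bases against 3201 over all genes, had medians of -0.19 and 0.78. The 77 oxidative phosphorylation subunits had -0.08 and 0.79, the 77 mitochondrial ribosomal proteins -0.13 and 0.53, the 37 proteasome subunits -0.05 and 0.49, and 358 numbered zinc finger genes, at a median length of 4034 bases, -0.03 and -0.37. The median interactions of these lists (0.35, 0.40, 0.22, 0.24 and -0.18) had the sign of replicate 2. With offsets for length and GC content they were 0.14, 0.15, 0.02, 0.12 and -0.05, and over all genes 0.03. The same offsets moved the median of monocyte maturation from 0.35 to 0.42, of Fc receptors from 1.36 to 1.04, of lysosomal genes from 0.28 to 0.33 and of interferon genes from 0.47 to 0.32. They moved S100 and annexin genes from 0.82 to 0.57, granule proteins from 0.68 to 0.50, MHC class I genes from 0.37 to 0.23 and Menin-KMT2A targets from -0.44 to -0.33. Single genes moved either way with these offsets. KIAA0226L, with a transcript of 11050 bases, went from -0.86 to -0.42 (edgeR unadjusted p 0.32). The transcription factor CEBPB, described below, went from 0.67 to 0.45 (edgeR unadjusted p 0.14). GAL went from -0.81 to -1.13 and ITGAX from 2.24 to 2.43, away from the sum. The part of length apart from GC content was not tested in single genes.

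**Figure D5:**
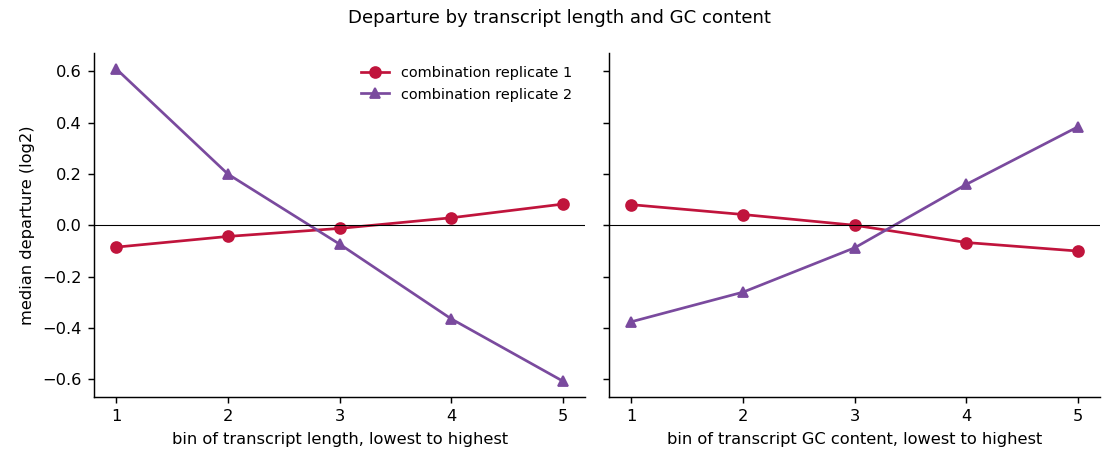
Median departure (log2, vertical axis) in 5 equal bins of transcript length (left) and GC content (right), from lowest to highest, 2419 genes per bin. Circles are combination replicate 1 and triangles replicate 2. Replicate 2 falls from 0.61 to -0.61 along length, while replicate 1 stays between -0.08 and 0.08.

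The expression programs that the study derived from single-cell perturbations were counted in the same way. P-15, its Myeloid Program, had 330 tested genes, of which 125 had an interaction above 0 and 205 below, with medians of 0.15 in combination replicate 1 and -0.41 in replicate 2 and a median transcript length of 5249 bases. Its median interaction was -0.09, and 0.10 with offsets for length and GC content. Both combination libraries lay above the other 6 for 60 of its genes (18.2%) and below them for 21 (6.36%), beside 13.2% of all genes on each side. This position does not measure a departure from the sum. By departure, 60 genes (18.2%) lay above 0 in both combination libraries and 45 (13.6%) below, beside 21.6% and 25% of all genes. Of the 330 genes, 3 lay above the sum at an unadjusted p under 0.05 (0.909%, beside 1.28% of all genes). Those were FCGRT, METTL9 and RAB31, and 0 lay below (0.919% of all genes). METTL9, a histidine methyltransferase, had 101 and 107 CPM in DMSO, 122 and 141 CPM with VTP50469, 179.6 and 176 CPM with WM1119 and 293 and 346 CPM with both (interaction 0.50, SE 0.20, edgeR adjusted p 0.938). P-14 had 4 of 68 genes above at an unadjusted p under 0.05 (5.88%), PECAM1, VIM, IPCEF1 and GRN, with medians of 0.22 and -0.21. P-1 had 6 of 223 above (2.69%), ANXA1 among them, and 1 below (0.448%), BZRAP1, with medians of 0.08 and -0.07. The other 14 programs had 0 to 2 genes on either side at an unadjusted p under 0.05.

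Other genes of myeloid maturation, and the drug targets, took no common course. CSF1R, the receptor for macrophage colony-stimulating factor, had 4.33 and 4.65 CPM in DMSO, 10.7 and 9.75 CPM with VTP50469, 11.03 and 11.49 CPM with WM1119 and 28.3 and 27.8 CPM with both, against 24.8 CPM from the sum (interaction 0.13, SE 0.21). CEBPD, a C/EBP transcription factor, had 22.5 and 22.6 CPM in DMSO, 43.7 and 50.4 CPM with VTP50469, 28.4 and 27.999 CPM with WM1119 and 64.5 and 122 CPM with both, with departures of 0.14 in replicate 1 and 1.05 in replicate 2 (interaction 0.66, SE 0.40). Its relative CEBPB had 9.81 to 13.2 CPM outside the combination and 18.1 and 21.3 CPM in it, above all other 6 libraries. The departures of CEBPB were 0.53 and 0.76. Its interaction was 0.67 (SE 0.25), and 0.45 with offsets for length and GC content. Without these offsets, CEBPB was the 1 member at an unadjusted p under 0.05 of 27 tested myeloid transcription factors. Of these, 15 had an interaction below 0 (51.9% of all genes), with median departures of 0.09 and -0.20. Toll-like receptors and signaling genes had 11 of 19 below 0 (median interaction -0.06), and growth factor and cytokine receptors had 16 of 26 above 0 (0.11). ALCAM, an adhesion molecule, had 52.6 to 88.4 CPM outside the combination and 133 and 79.8 CPM in it, 1 library above the sum of 117 CPM and 1 below it (interaction -0.15, SE 0.36). Among the drug targets, MEN1 had 79.6 to 89.5 CPM outside the combination and 75.1 and 62.5 CPM in it (interaction -0.34, SE 0.20). KAT6A varied within groups, at 105 and 186 CPM with WM1119 and 126 and 38.0 CPM with both, and its interaction of -0.48 (SE 0.74) had no firm sign. The edgeR adjusted p of these genes was 0.938, or 0.943 for ALCAM, and both drugs act on the proteins, so these levels do not measure inhibition.

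The read-through names that DESeq2 called below the sum are uncertain, since their counts can be split among overlapping genes. ISY1-RAB43 had 3.53 to 5.67 CPM outside the combination and 0 in both combination libraries. CHURC1-FNTB was at 0 in DMSO and in the combination, and had 0.966 to 6.64 CPM with a single inhibitor. Markers of other cell types were mostly untested for low counts. Of the T and NK cell markers 6 of 24 were tested, of B and plasma cell markers 4 of 18, of dendritic cell markers 7 of 18, of erythroid markers 2 of 20, of megakaryocyte markers 3 of 15, of mast cell, basophil and eosinophil markers 4 of 18 and of epithelial and stromal markers 7 of 21. The members with an unadjusted p under 0.05 were IGLL5, a B cell gene at 1.62 CPM or less in every library that shares sequence with immunoglobulin lambda, and VIM, which myeloid cells express.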

How the data were processed

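RNA of MOLM-13 cells was sequenced in 8 libraries. The authors mapped paired-end reads of 150 bp to hg38 with STAR 2.5.1b and deposited expected counts per gene symbol, not normalized, in 1 table. For the counting tool, strand setting and gene models nothing is given in the sources used here, and the paper and the labels name different library kits. Of the values above 0 per library, 11.4% to 16.6% are not whole, and they were rounded. Groups follow the labels, and 0 columns were left unmapped.

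Rounded counts, filtered by filterByExpr and scaled by TMM, went into the quasi-likelihood F test of edgeR 4.0.16 under R 4.3.3 (4 groups in 1 fit, contrast combination minus VTP50469 minus WM1119 plus DMSO), with Benjamini-Hochberg adjustment over 12401 genes and a common dispersion of 0.0457 on 4 residual and 2.88 prior degrees of freedom. CPM are scaled by the TMM factors, and departures use log2(CPM + 0.5). The standard error is the fitted log2 value divided by the square root of F. The fits were checked on simulated data. Replicates of 1 group differed by more than sampling noise in every group (chi-square per degree of freedom from 4.3 in DMSO to 167 in the combination). GENCODE release 44 gave the transcript length and GC content of 12095 of the genes tested (97.5%).

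Genes were named by rule: the 12 genes per side with the lowest interaction p at a mean of at least 5 CPM in 1 group with both combination libraries on the same side, every gene called by DESeq2, up to 2 members per list and side at an unadjusted p under 0.05, and CEBPD, ALCAM, PECAM1, ITGAM, CSF1R, MEN1, KAT6A, MEIS1, HOXA9 and PBX3. Of these, 1 of the 12 above the sum and 1 list member are not reported here. S100A9, CD86, LYZ, MPO, RAB31, IPCEF1 and GRN were named after their values were seen. The members, the 53 gene lists and the 17 programs were chosen with earlier results of these data known. Alternatives were DESeq2 1.42.0 on 16403 genes with at least 1 count, limma 3.58.1 with quality weights, other size factors and filters, a robust fit, a replicate block, length and GC offsets, other pseudocounts, the CPM scale and leaving out each library. The authors used DESeq2 with treatment as the factor.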

Additional observations from a re-analysis of the deposited data

Results flagged for a closer look

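For 5 of the 24 leading genes, every library with an inhibitor moved one way without the other drug and the opposite way with it. The contrast of these effects is the interaction itself, which edgeR did not call for any of the 5 (adjusted p 0.938). With WM1119, SEMA6B stood lower than DMSO in both libraries (log2 -0.29) and higher than VTP50469 when added to it (1.49), an interaction of 1.78, and its VTP50469 effect turned from -0.11 to 1.67, the same interaction of 1.78. SRC turned with WM1119 from -0.43 to 1.54 and with VTP50469 from -1.27 to 0.70 (interaction 1.97). The VTP50469 effect turned from -0.87 to 0.74 for PFKFB4 (interaction 1.61) and from -0.59 to 0.21 for VIM (0.81). KIAA0226L turned with WM1119 from 0.28 to -0.58 (interaction -0.86, and -0.42 with offsets for length and GC content). In this sense 3 of the 24 genes turned for WM1119, beside 1.97% of 12401 genes, and 4 of 24 for VTP50469, beside 2.4%. The 24 were chosen by the same interaction, so nothing is read from these shares.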

How the results depend on the processing

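With 2 libraries a group, no gene passed edgeR in the fit of all 8 libraries. The direction of the 24 leading genes, which the rule that chose them largely fixes, held in the 479 values of the alternatives. The exception was GAL, which lay at the sum on the CPM scale. Over 1447 values of the 73 named genes, 1331 kept direction and side of the threshold, 66 newly passed it, 43 moved and 7 reversed, in 3 genes. The reversed values are IGLL5 with log2(CPM + 1) (0.11) and on the CPM scale (0.365), ALCAM with length and GC offsets (0.044), without WM1119 replicate 2 (0.057) and without combination replicate 2 (0.19), and KAT6A without WM1119 replicate 2 (0.0021) and without combination replicate 2 (0.16). Leaving out 1 library gave -0.58 to 0.19 for ALCAM and -1.61 to 0.16 for KAT6A. DESeq2 called 3 genes above and 2 below the sum. At an unadjusted p under 0.05, limma with quality weights, 0.17 and 0.158 for the combination libraries against 2.97 at most, left 108 above and 33 below, against 159 and 114. Length and GC offsets gave 334 and 225. Leaving out 1 library gave 0 to 1586 genes called above and 0 to 2352 below, and 62 to 2462 above and 58 to 3347 below at an unadjusted p under 0.05. The highest counts are those without combination replicate 1, where replicate 2 alone is assumed to vary like the other groups, and without combination replicate 2 there were 0 and 0 called and 318 and 263 unadjusted. Without DMSO replicate 1 or 2 the unadjusted counts were 88 and 59 or 68 and 73, without VTP50469 replicate 1 or 2 62 and 58 or 119 and 73, and without WM1119 replicate 1 or 2 110 and 74 or 80 and 58. The other edgeR settings called 0 genes.

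Whether same-numbered libraries share a culture or batch is not given. Their deviations correlated from -0.59 (WM1119 and combination) to 0.29 (VTP50469 and combination). Replicate differences also went with transcript length (Spearman -0.613 with WM1119, 0.606 in the combination), so these correlations cannot decide it. With the replicate block, 0 genes were called and 111 lay above and 80 below the sum at an unadjusted p under 0.05. Scaling by library size alone put the median interaction of all genes at -0.11, against -0.02. Of 1398 list medians under the alternatives, 227 moved.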
